A study of Mus musculus with 6 samples.

Results

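The genes described here are 37 genes of epithelial junctions and epithelial identity, chosen by name for their roles out of 37001 genes on the array. They were followed in 6 mouse teratomas, tumours of many tissue types that arise from embryonic stem cells under the skin, in BALB/c nude mice, which lack T cells and so accept such grafts. The 3 control tumours received a microRNA negative control and the 3 miR-124a tumours a mimic of miR-124a-3p, a microRNA abundant in neurons. Mice were randomised to the groups. Each array was taken to stand for the tumour of another mouse, which randomisation alone does not establish. Both agents were injected into the tumour as a complex with the carrier Atelogen QG, at 15 µg per 100 µL every 3 days until day 28, starting about 10 days after the cells, when the tumour had reached 100 mm3. RNA was taken from 1 of the 2 pieces into which each tumour was cut, and it holds grafted and host cells together. The stem cell line and the age and sex of the mice are not given in the sources used here. All 37 genes had a probe, 66 probes in all. Values are given as the probe's intensity in percent of the 75th percentile of its array, and differences as log2 of miR-124a over control with their SE, tested with limma and Benjamini-Hochberg adjustment over 22946 genes at a threshold of 0.05.

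Epithelial cells form sheets by joining their side walls. E-cadherin (Cdh1) holds neighbouring cells together, tight junctions of claudins and occludin-related proteins close the gap between them and are anchored to the cytoskeleton by scaffolds such as ZO-1 (Tjp1), and integrins with laminins fasten the sheet to the basal lamina. Grainyhead-like, Ovo-like and ETS transcription factors keep the programme on, Esrp proteins set the epithelial pattern of splicing, and membrane serine proteases with their Kunitz-type inhibitors help to build the barrier.

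Of the 36 genes that were tested 1 passed the test, as lower in the miR-124a tumours (2.78%, against 2.75% of all genes). Itgb6, an integrin beta subunit that pairs with Itgav and is made by epithelial cells, fell 2.48-fold in the miR-124a tumours. The tight junction protein gene Marveld2 was lower and the junction genes Cgn and Cxadr were higher in the miR-124a group without overlap between the groups, but these 3 did not pass the test. Groups did not overlap for 4 of the 36 genes (11.1%), against 35.6% of all genes, and they overlapped for the other 32. Within the groups, control 1 and miR-124a 2 were each lowest, and control 2 and miR-124a 3 each highest, for 24 to 29 of the 36 genes. Over all genes tested these shares were 25.4% to 36.2%. Control 1 lowest, miR-124a 2 lowest and miR-124a 3 highest came together for 19 of the 36 (52.8%, against 6.36% of all genes). In a bulk sample, fewer cells of a type and less RNA per cell cannot be told apart.

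Of the 37 genes, 36 were tested. A gene needed a probe well above background on each array of the control or the miR-124a group, and 34 of the 36 were well above it on all 6 arrays. Cldn4 and Cldn6 passed through the control group and exceeded background clearly on 2 of 3 arrays of the miR-124a group. Ovol1 was not tested. Its signal was 2.35%, 2.96% and 2.20% in control 1 to 3 and 1.98%, 1.42% and 2.42% in miR-124a 1 to 3, well above background on 2 control arrays and 1 miR-124a array. Of the 36 tested genes 1 fell (2.78%), 0 rose and 35 did not pass, where 3.23% of all 22946 genes were called in either direction, 2.75% lower and 0.488% higher. At an unadjusted p under 0.05 (limma) there were 4 of the 36 (11.1%) against 27.3% of all genes, and the groups did not overlap for 4 of the 36 (11.1%) against 35.6%, with 2 lower (against 20.6% of all genes) and 2 higher. Of the 36, 1 gene (2.78%) was at least 2-fold lower, against 2.77% of all genes. By sign, 29 of the 36 differences were negative (80.6%, against 50.3% of all genes). Their median was -0.24, with 0.00 over all genes tested, and their range was -1.31 to 0.58. The 4 genes whose groups did not overlap and those with an unadjusted p under 0.05 were the same genes, Itgb6, Marveld2, Cgn and Cxadr.

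**Figure D1:**
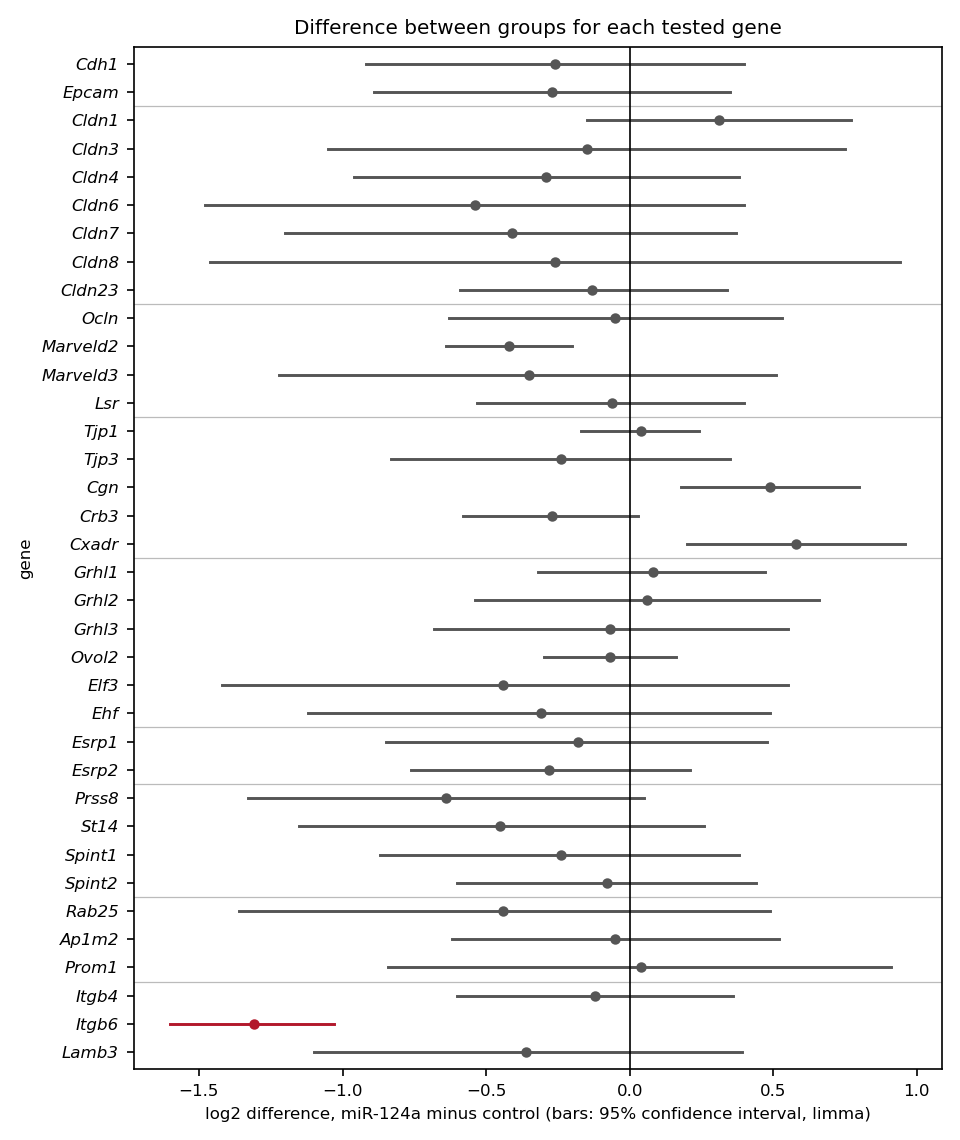
Log2 difference of miR-124a over control for the 36 tested epithelial genes, grouped by role, on the horizontal axis, as points with 95% confidence intervals from limma (n = 3 tumours per group). The interval of Itgb6, -1.60 to -1.03, lies to the left of 0, and that of Marveld2 reaches from -0.64 to -0.20. Those of Cgn and Cxadr lie above 0, and all 32 other intervals include 0.

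The array as a whole gave the following frame. Between 63.4% and 65.9% of 56605 probes were well above background per array, 0 spots were saturated, and the 75th percentiles of intensity lay between 278.6 and 315.2. All arrays were on 1 slide with 1 scan date, with the controls in row 1 and the miR-124a tumours in row 2, so that row and group cannot be told apart. The number of arrays limits the precision. The tumours held RNA of several tissues, since all 8 markers of simple epithelium, all 11 of neurons and all 11 of skeletal muscle passed the filter on background. So did 10 of 13 intestinal and 13 of 15 keratinocyte markers, while Cdx2 and Cdhr5 of the intestinal list and Ivl of the keratinocyte list were not well above background on any array.

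Itgb6 was read by a probe that spans mm9 chromosome 2, 60438632 to 60443247, across a splice junction. Its signal was 17.45%, 15.71% and 14.31% in control 1 to 3 and 6.47%, 5.75% and 6.88% in miR-124a 1 to 3. Every miR-124a tumour lay below every control, and miR-124a 2, the tumour in which most of the other genes were lowest, was close to miR-124a 1 and miR-124a 3. The group means were 15.8% ± 1.57 (SD, n = 3) and 6.37% ± 0.572 (SD, n = 3), a log2 difference of -1.31 ± 0.12 (limma, adjusted p = 0.0182). The difference was -0.44 when background was corrected with normexp, a model that adds an offset and draws dim signals together, and it passed there too (adjusted p = 0.0197). Leaving out control 1 or control 2 gave -1.24 and -1.32, and leaving out miR-124a 1 or miR-124a 2 gave -1.33 and -1.24. In these 4 fits the gene no longer passed (limma, adjusted p = 0.0563, 0.0589, 0.0895 and 0.0729). A further Itgb6 probe was not well above background on any array. Itgav, the alpha subunit that Itgb6 needs to form a receptor, differed by -0.20 ± 0.10 and did not pass (limma, adjusted p = 0.270). Of 14 markers of gastric, airway and glandular epithelium 4 fell (Gkn2, Tff1, Aqp5 and Gkn3), against 2.75% of all genes. The other 10 did not pass, and the 14 had 12 negative differences and a median of -1.08. Their summed signal was 3490% to 5340% in controls and 1360% to 3190% in miR-124a tumours. Their part in the fall of Itgb6 was not tested.

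**Figure D2:**
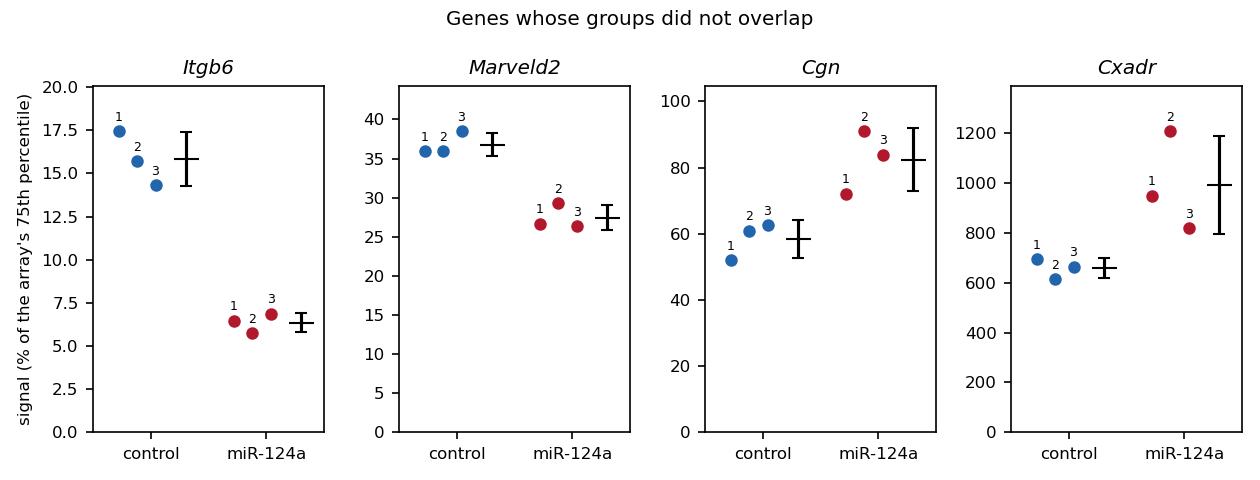
Signal of Itgb6, Marveld2, Cgn and Cxadr in percent of the array's 75th percentile (vertical axes, each starting at 0) for 3 control and 3 miR-124a tumours, as points numbered by replicate, with the mean and SD beside them. The groups do not overlap in any panel, with Itgb6 at 14.31% or above in controls and at 6.88% or below in miR-124a tumours.

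The other genes of the basal side behaved differently. Itgb4, the beta subunit of the hemidesmosome integrin, had 125.0%, 166.1% and 135.6% in control 1 to 3 and 146.6%, 99.6% and 151.5% in miR-124a 1 to 3. Lamb3, a chain of the laminin that anchors epithelium, had 27.38%, 50.83% and 35.02% and then 32.40%, 19.76% and 36.38%. For Itgb4 and Lamb3 miR-124a 2 was the lowest of the 6 tumours, while miR-124a 1 and miR-124a 3 lay within the range of the controls. The differences, -0.12 ± 0.20 for Itgb4 and -0.36 ± 0.31 for Lamb3, did not pass (limma, adjusted p = 0.733 and 0.485). Of 15 further genes of hemidesmosomes and basal lamina, 1 fell (against 2.75% of all genes), 0 rose and 14 did not pass. Their median was -0.13. Plec, the plectin that links integrins to intermediate filaments and is also abundant in muscle, fell by 0.79 ± 0.13 on the log2 scale (limma, adjusted p = 0.0397). Beside it 10 of 11 skeletal muscle markers fell, with a summed signal of 47500% to 74400% in controls and 18300% to 26200% in miR-124a tumours, and their part in the value of Plec was not tested. Itgb1 at -0.54, Cd151 at -0.44 and Lama5 at -0.39 did not pass (limma, adjusted p = 0.0521, 0.0872 and 0.122).

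Among the occludin family and tricellular proteins, Marveld2 stood apart. It encodes tricellulin, which seals the points where 3 cells meet, and its probe lies at mm9 chromosome 13, 101366067 to 101366126. Its signal was 35.93%, 35.95% and 38.50% in control 1 to 3 and 26.70%, 29.27% and 26.39% in miR-124a 1 to 3. All miR-124a values were below all control values, and miR-124a 2 was the highest of its group. The difference was -0.42 ± 0.09, or 1.34-fold lower, and did not pass (limma, adjusted p = 0.0620). It passed with normexp (-0.28, adjusted p = 0.0378). A dimmer Marveld2 probe gave -0.31 with overlapping groups. Lsr, the lipolysis-stimulated lipoprotein receptor, which recruits tricellulin to these points, had 276.2%, 324.7% and 389.6% in controls and 374.0%, 253.1% and 322.8% in miR-124a tumours, groups that overlapped widely. Its difference was -0.06 ± 0.19 (limma, adjusted p = 0.850). Ocln, occludin itself, was dim at 3.824% to 6.618% over all 6 tumours and differed by -0.05 ± 0.24, and Marveld3, the remaining MARVEL domain member, differed by -0.35 ± 0.36. Neither passed (limma, adjusted p = 0.908 and 0.552).

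Cgn and Cxadr were the genes with the largest positive differences. Cgn encodes cingulin, a cytoplasmic protein of tight junctions, and was read at mm9 chromosome 3, 94564031 to 94564090. Its signal was 52.01%, 60.97% and 62.59% in control 1 to 3 and 72.13%, 91.00% and 83.91% in miR-124a 1 to 3. The lowest miR-124a tumour lay above the highest control, and the difference of 0.49 ± 0.13, or 1.41-fold, did not pass (limma, adjusted p = 0.0851). A further Cgn probe was dim and not tested. Cxadr, the coxsackievirus and adenovirus receptor, is an adhesion molecule of tight junctions that developing neural tissue also makes, and was read at mm9 chromosome 16, 78340923 to 78340982. Its signal was 693%, 614% and 663% in control 1 to 3 and 947%, 1206% and 818% in miR-124a 1 to 3, again without overlap. The difference of 0.58 ± 0.16, or 1.49-fold, did not pass (limma, adjusted p = 0.0909) but passed with normexp (0.65, adjusted p = 0.0479). Of 2 further Cxadr probes, 1 gave 0.46 without overlap and 1 gave 0.19 with overlap.

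In both Cgn and Cxadr miR-124a 2 was the highest tumour of all, where most epithelial genes were lowest. A list of 11 neuron markers was also highest in miR-124a 2, with medians relative to the control mean of 0.41, 0.62 and 0.30 in miR-124a 1 to 3 and 0.07, 0.00 and -0.07 in control 1 to 3. All 11 differences of that list were positive and 0 passed, and its summed signal was 12500% to 14400% in controls and 16500% to 20800% in miR-124a tumours. Its part in the values of Cgn and Cxadr was not tested.

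The remaining scaffolds showed smaller differences. Tjp1, which encodes the scaffold ZO-1 and is active in many tissues, had 273.4%, 265.9% and 271.2% in controls and 272.5%, 266.3% and 292.9% in miR-124a tumours. Its difference was 0.04 ± 0.09, with a 95% confidence interval of -0.17 to 0.24, while a dimmer probe of the gene gave 0.25 without overlap between the groups. Tjp3, or ZO-3, had 89.4%, 165.9% and 126.5% in controls and 105.9%, 88.1% and 121.2% in miR-124a tumours, overlapping groups with the lowest values in miR-124a 2 and control 1. Crb3, a polarity protein of the apical membrane, was dim, with 3.863% to 4.522% in controls and 3.054% to 3.893% in miR-124a tumours. Tjp1, Tjp3 and Crb3 did not pass (limma, adjusted p = 0.809, 0.549 and 0.219), the last 2 at -0.24 ± 0.24 and -0.27 ± 0.13.

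For the adhesion receptors and claudins the groups overlapped, and miR-124a 2 was the lowest tumour for all of them but Cldn1. Cdh1, the adhesion molecule of adherens junctions, read at mm9 chromosome 8, 109193812 to 109193871, had 60.36%, 84.65% and 74.95% in control 1 to 3 and 68.18%, 40.67% and 80.50% in miR-124a 1 to 3. Epcam, an epithelial adhesion molecule that stabilises Cldn7, had 12.51%, 17.19% and 14.83% and then 14.74%, 8.32% and 14.75%. In both genes miR-124a 2 was the lowest tumour, and miR-124a 1 and miR-124a 3 lay within the range of the controls. The differences were -0.26 ± 0.27 and -0.27 ± 0.26, and neither passed (limma, adjusted p = 0.569 and 0.520).

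Of the 7 claudins, the strand-forming proteins of tight junctions, 0 passed, 6 had a negative difference and 1 a positive one. Cldn7 had 67.5%, 125.5% and 105.1% in control 1 to 3 and 87.9%, 48.3% and 89.1% in miR-124a 1 to 3, a difference of -0.41 ± 0.32. Cldn8 had 12.19%, 26.42% and 24.08% and then 20.52%, 8.32% and 26.28%, a difference of -0.26 ± 0.50. In both, miR-124a 2 was lowest and control 1 was next, so that a control tumour lay nearer to miR-124a 2 than to the other controls. Cldn3 repeated this, at 49.1%, 103.2% and 84.5% in controls and 73.0%, 44.5% and 96.4% in miR-124a tumours. Cldn1, a claudin of the epidermis, did not: its signal was 35.97%, 39.79% and 58.25% in controls and 54.74%, 56.77% and 50.95% in miR-124a tumours, with control 1 lowest and control 3 highest. Its difference was 0.31 ± 0.19 (limma, adjusted p = 0.332). Cldn23 differed by -0.13 ± 0.19, and the dim genes Cldn4 and Cldn6 by -0.29 ± 0.28 and -0.54 ± 0.39. A further Cldn7 probe was dim and not tested, and it went the other way, at 1.68 with overlapping groups. It was well above background on 0 control arrays and 1 miR-124a array.

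The transcription factors held 6 tested genes, of which 0 passed. Grhl2, a grainyhead-like activator of Cdh1 and claudin genes, had 35.22%, 53.95% and 54.27% in control 1 to 3 and 58.05%, 36.60% and 54.77% in miR-124a 1 to 3. Here control 1 and miR-124a 2 were low and the other 4 tumours nearly level, and the difference was 0.06 ± 0.25. Grhl1 and Grhl3 differed by 0.08 ± 0.16 and -0.07 ± 0.26. Ovol2, a repressor of mesenchymal genes, varied little, between 179.3% and 210.5% in controls and between 182.0% and 186.7% in miR-124a tumours, with a difference of -0.07 ± 0.09 and a 95% confidence interval of -0.30 to 0.16. The ETS factor genes Elf3 and Ehf, active in glandular and other epithelia, varied more. Elf3 had 12.10%, 23.29% and 13.39% in controls and 10.76%, 7.32% and 19.34% in miR-124a tumours. Ehf had 70.3%, 120.3% and 87.6% in controls and 76.2%, 47.6% and 106.2% in miR-124a tumours. The highest value of both was in control 2 and the lowest in miR-124a 2, with differences of -0.44 ± 0.41 and -0.31 ± 0.33 (limma, adjusted p = 0.518 and 0.569).

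Esrp1 and Esrp2, which set epithelial splicing, were also lowest in miR-124a 2. Esrp1 was at 29.28%, 43.72% and 36.98% in controls and at 33.40%, 22.20% and 43.55% in miR-124a tumours. Esrp2 was at 11.30%, 12.26% and 9.91% in controls and at 9.63%, 6.94% and 11.52% in miR-124a tumours. The groups overlapped for both. The differences were -0.18 ± 0.27 for Esrp1 and -0.28 ± 0.20 for Esrp2, and neither passed (limma, adjusted p = 0.691 and 0.405). Splicing itself was not measured here.

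The proteases and their inhibitors had a median of -0.35 over 4 genes, with 0 that passed. Prss8, or prostasin, a membrane-bound protease of the epithelial barrier, had 10.35%, 14.83% and 16.97% in control 1 to 3 and 10.10%, 6.11% and 11.15% in miR-124a 1 to 3. The groups overlapped only through control 1, and the difference was -0.64 ± 0.28, or 1.56-fold lower, with a 95% confidence interval of -1.33 to 0.05 (limma, adjusted p = 0.206). St14, or matriptase, which works in a cascade with prostasin, had 20.12%, 34.04% and 28.89% in controls and 21.68%, 13.83% and 26.03% in miR-124a tumours, a difference of -0.45 ± 0.29. A dimmer St14 probe gave -0.81 and was well above background on 1 miR-124a array. The genes of its inhibitors, Spint1 and Spint2, differed by -0.24 ± 0.26 and -0.08 ± 0.21. A further Spint2 probe gave -0.25 without overlap between the groups.

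Rab25, a small GTPase of apical recycling, had 22.68%, 47.85% and 29.64% in control 1 to 3 and 26.61%, 14.75% and 33.08% in miR-124a 1 to 3. Control 2 was highest and miR-124a 2 lowest, and the difference of -0.44 ± 0.38 did not pass (limma, adjusted p = 0.489). Ap1m2, an adaptor subunit for sorting to the basolateral membrane, was dim and differed by -0.05 ± 0.23. Prom1, or prominin, an apical membrane protein that is also made by neural progenitors, had 13.66%, 17.84% and 27.00% in controls and 28.18%, 12.57% and 20.10% in miR-124a tumours. Its groups overlapped, and its 2 tested probes differed in sign, at 0.04 and -0.16. It was the only one of 12 genes with several tested probes for which this was so.

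**Figure D3:**
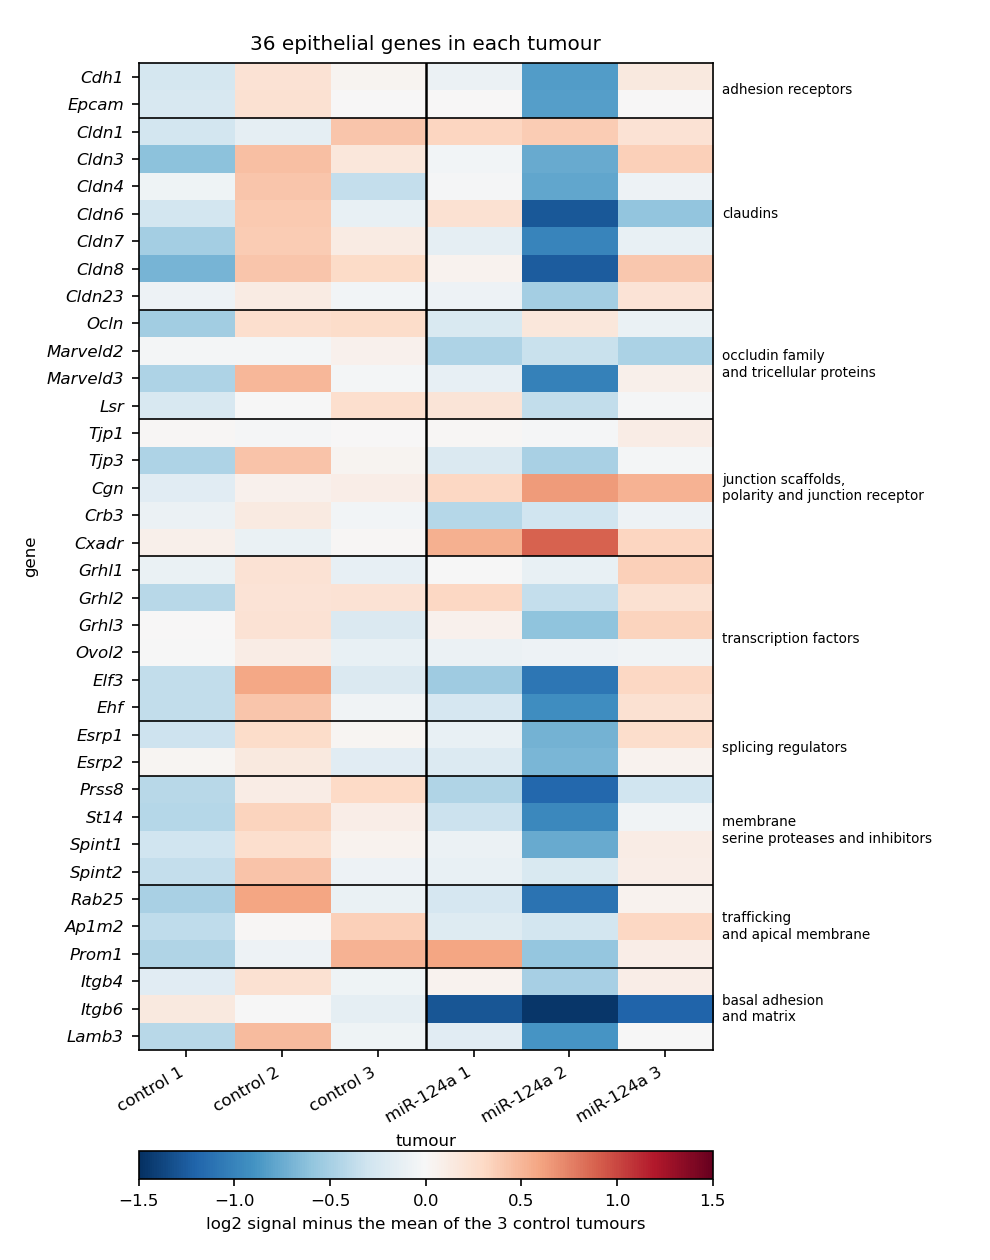
Heat map of the log2 signal of the 36 tested epithelial genes relative to the control mean, with 1 row per gene grouped by role and 1 column per tumour (3 control, 3 miR-124a). The column of miR-124a 2 is the lowest of the miR-124a tumours for 29 of them, while Itgb6 is low in all 3 miR-124a tumours.

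The same tumours were often lowest or highest within their groups. Among the miR-124a tumours, miR-124a 2 was lowest for 29 of 36 genes (80.6%, against 34.7% of all genes tested) and miR-124a 3 highest for 26 (72.2%, against 25.4%). Among the controls, control 1 was lowest for 28 genes (77.8%, against 32.9%) and control 2 highest for 24 (66.7%, against 36.2%). These genes share the same 6 RNA samples, so the counts describe these tumours. The combination of control 1 lowest, miR-124a 2 lowest and miR-124a 3 highest within their groups was found for 19 of 36 genes (52.8%), and for 6.36% of all genes tested. With control 2 highest as well it was found for 17 of the 36, and the share of all genes was not computed for this. The median gene stood at -0.29, 0.22 and 0.01 relative to the control mean in control 1 to 3 and at -0.09, -0.64 and 0.10 in miR-124a 1 to 3.

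By role, the median in miR-124a 2 was -0.83 for the adhesion receptors, -0.77 for the claudins, -0.86 for the proteases and their inhibitors and -0.89 for the basal genes. It was -0.69 for the splicing regulators, -0.58 for trafficking and apical genes, -0.48 for the transcription factors and -0.35 for the occludin family. The role of scaffolds, polarity and the receptor Cxadr was at -0.02 there. In miR-124a 3 the same roles lay between -0.06 and 0.27.

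The spread between tumours was wider for these genes than for most. Their median SD on the log2 scale was 0.35 in controls and 0.40 in miR-124a tumours, with 0.18 and 0.13 over all genes tested. The highest and lowest of the 6 tumours differed by 2-fold or more for 17 of 36 genes (47.2%, against 22.0% of all genes). Without miR-124a 2 the median difference of the 36 genes went from -0.24 to 0.00, 18 of the 36 differences were negative (50%, against 49.2% of all genes) and 0 genes passed. Without control 2 the median was -0.07, without control 1 it was -0.33, and without miR-124a 3 it was -0.40. Weights that count less consistent arrays less gave -0.08, and normexp gave -0.09.

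Median levels of the simple epithelium and keratinocyte lists were low in the same tumours. The simple epithelium list (8 genes, all tested, among them Krt8 and Krt19) stood at -0.32, 0.16 and 0.12 in control 1 to 3 and at -0.09, -0.69 and 0.17 in miR-124a 1 to 3. The keratinocyte list (13 of 15 genes tested, among them Krt5 and Krt14) stood at -0.25, 0.29 and -0.06 and then at -0.29, -0.81 and 0.16. In both list medians control 1 and miR-124a 2 were the lowest tumours of their groups. Of the 13 keratin genes in the lists, 10 were lowest in control 1 among controls, against 32.9% of all genes. Among miR-124a tumours 10 were lowest in miR-124a 2, against 34.7% of all genes. The whole order (control 1 and miR-124a 2 lowest, control 2 and miR-124a 3 highest) was found for 6. Its share of all genes was not computed. In both lists 0 genes passed, and the medians were -0.21 and -0.22. The summed signal of the simple epithelium list was 2940% to 3870% in controls and 2530% to 3360% in miR-124a tumours, and that of the keratinocyte list 4490% to 6560% and 3350% to 6410%. Cdhr1, known mainly from photoreceptors, was the only gene of the simple epithelium list with a positive difference. Other epithelial lists shared part of the order of tumours. The gastric, airway and glandular list stood at -0.04, 0.35 and -0.13 in control 1 to 3 and at -1.15, -1.61 and -0.48 in miR-124a 1 to 3. The intestinal list stood at 0.03, 0.04 and -0.06 and then at -0.49, -0.63 and -0.48. In both of these control 2 was the highest control, miR-124a 2 the lowest tumour and miR-124a 3 the highest of the miR-124a tumours. The lowest control was control 3, not control 1, and every miR-124a tumour lay below every control. The part of the amount of epithelium in the values of the junction and identity genes was not tested.

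**Figure D4:**
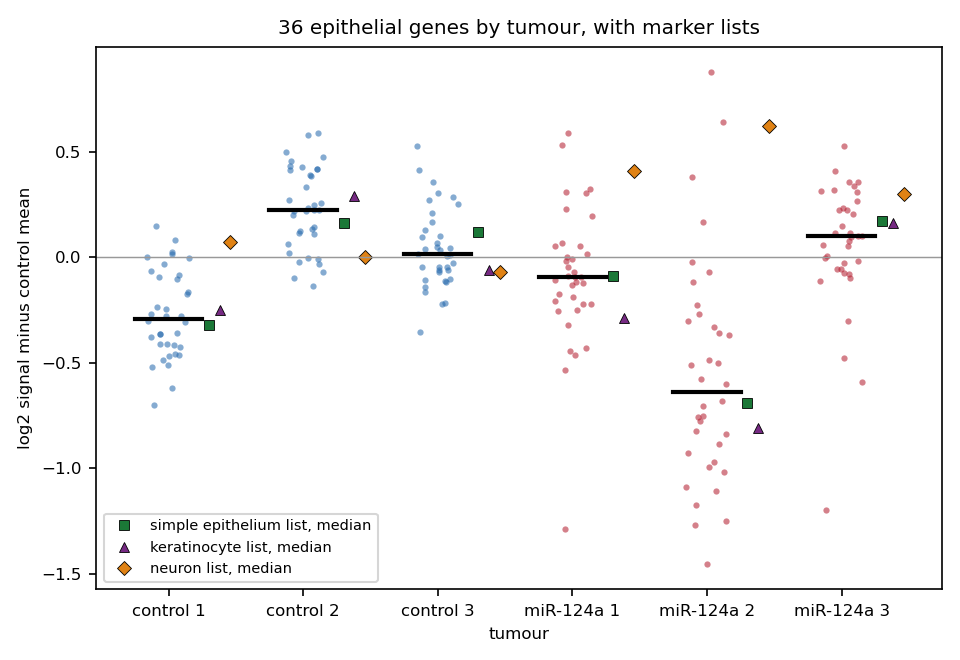
Log2 signal relative to the control mean (vertical axis) of the 36 tested epithelial genes as points in each of the 6 tumours, with their median as a bar and the medians of 3 marker lists as symbols. Medians of the epithelial genes and of the simple epithelium and keratinocyte lists are lowest in miR-124a 2 (-0.64, -0.69 and -0.81), where the neuron list is highest (0.62).

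The promoters of these genes were searched for shared letters. Of the 37 genes 24 matched the table of GRCm38.p6, with 33 start sites. The 250 bases before each start were searched on both strands for CAGGTG, which reads as CACCTG from the other strand, the E-box that Snail and Zeb repressors bind, and for AACCNGTT, a grainyhead-like motif that reads as AACNGGTT from the other strand. The motifs were chosen after the values were seen, and no match of one overlapped a match of the other. The E-box letters were in 18 of 33 windows (54.5%) and in 16 of 24 genes (66.7%). The genes were Ap1m2, Cldn4, Cldn6, Cldn7, Crb3, Elf3, Epcam, Grhl3, Itgb6, Lamb3, Lsr, Ocln, Prom1, Rab25, Spint2 and Tjp3. Over the genome the letters were in 17.2% of all 32851 windows, in 19.4% of 27025 genes and in 19.7% of the 13710 genes that were tested on the array. The windows of the epithelial genes were richer in G and C, at 59.2% against 53.2% of all windows and 58.5% of those of tested genes. The grainyhead-like letters were in 3 of 24 genes (12.5%; Cgn, Prom1 and Rab25) and in 2.0% of all genes. A match is a description of letters and not a binding site.

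Of all 6 tumours, miR-124a 2 was not the lowest for Crb3 and Spint2, which hold 3 E-box matches in a window. It was not the lowest for Ocln either, which holds 2. Among the miR-124a tumours alone it was the lowest for Spint2. Cldn3 and Spint1, for which miR-124a 2 was the lowest of all 6, hold 0. Whether matches go with the order of tumours over the 24 genes with a window was not tested. Some of the windows with several matches are printed as examples, and both starts of Itgb6 as the gene that fell. All are 5′ to 3′ on the strand of the gene, from RefSeq GRCm38.p6, with the matches in capitals. Epcam lies at chr17:87635729-87635978 on the plus strand and the rest on the minus strand, Rab25 at chr3:88548280-88548529, Lsr at chr7:30973470-30973719 and Ap1m2 at chr9:21312334-21312583. The downstream start of Itgb6 has the window chr2:60673694-60673943 and the upstream start chr2:60722604-60722853.
Epcam: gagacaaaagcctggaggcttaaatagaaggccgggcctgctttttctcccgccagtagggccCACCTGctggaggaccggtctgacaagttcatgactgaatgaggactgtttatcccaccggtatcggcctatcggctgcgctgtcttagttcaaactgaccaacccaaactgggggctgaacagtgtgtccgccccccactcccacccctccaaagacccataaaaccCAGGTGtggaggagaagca
Rab25: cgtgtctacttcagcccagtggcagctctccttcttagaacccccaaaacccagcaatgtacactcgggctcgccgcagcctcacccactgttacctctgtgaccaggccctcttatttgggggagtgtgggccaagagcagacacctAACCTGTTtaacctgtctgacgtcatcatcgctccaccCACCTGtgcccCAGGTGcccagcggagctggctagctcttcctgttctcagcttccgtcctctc
Lsr: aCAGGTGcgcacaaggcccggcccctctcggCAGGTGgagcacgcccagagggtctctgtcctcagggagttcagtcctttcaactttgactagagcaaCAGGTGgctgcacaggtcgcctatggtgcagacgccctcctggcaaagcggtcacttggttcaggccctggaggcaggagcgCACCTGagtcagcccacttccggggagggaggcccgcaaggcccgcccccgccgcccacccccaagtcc
Ap1m2: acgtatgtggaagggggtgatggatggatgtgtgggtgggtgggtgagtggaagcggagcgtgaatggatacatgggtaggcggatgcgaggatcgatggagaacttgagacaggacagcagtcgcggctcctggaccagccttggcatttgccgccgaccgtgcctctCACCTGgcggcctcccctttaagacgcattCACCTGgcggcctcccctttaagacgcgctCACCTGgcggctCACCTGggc
Itgb6, downstream start: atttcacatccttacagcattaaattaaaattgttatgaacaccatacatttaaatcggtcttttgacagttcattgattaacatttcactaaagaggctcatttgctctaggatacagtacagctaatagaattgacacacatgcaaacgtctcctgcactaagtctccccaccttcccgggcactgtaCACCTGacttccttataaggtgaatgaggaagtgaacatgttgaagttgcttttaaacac
Itgb6, upstream start: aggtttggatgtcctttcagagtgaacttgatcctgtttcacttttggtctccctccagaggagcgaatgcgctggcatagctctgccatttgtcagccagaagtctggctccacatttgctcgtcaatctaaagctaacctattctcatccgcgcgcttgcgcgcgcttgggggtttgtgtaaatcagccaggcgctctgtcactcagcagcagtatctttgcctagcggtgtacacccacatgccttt
Epcam holds 2 E-box matches, Lsr and Ap1m2 hold 4 each, and Rab25 holds 2 beside 1 grainyhead-like match. Itgb6 has 1 E-box match at the downstream start and 0 at the upstream one, and the array does not tell which start was used.

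Factors that bind such E-boxes were measured as well. Of 18 mesenchymal and epithelial-mesenchymal transition genes 1 fell (against 2.75% of all genes), 0 rose and 17 did not pass. Their median was -0.13. Prrx1, a homeobox gene of mesenchyme, fell by 0.86 ± 0.09 on the log2 scale (limma, adjusted p = 0.0210). The repressor genes Snai1 and Snai2 differed by -0.51 ± 0.11 and -0.61 ± 0.13, Zeb1 and Zeb2 by -0.15 ± 0.08 and -0.10 ± 0.09, and none of these passed (limma, adjusted p = 0.0630, 0.0659, 0.290 and 0.516). Cdh2, the N-cadherin of mesenchymal and neural cells, stood at 0.42 ± 0.13 (limma, adjusted p = 0.110). The list score was 0.11, -0.04 and -0.07 in control 1 to 3 and -0.07, -0.12 and -0.12 in miR-124a 1 to 3, where the epithelial genes had -0.64 in miR-124a 2.

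Other genes of the junction pathway were read against the 3.23% of all genes called. Of 18 tested genes among 22 further tight junction genes, 1 rose, 0 fell and 17 did not pass, with a median of 0.00. Magi1, a scaffold that joins receptors at junctions, rose by 0.68 ± 0.11 on the log2 scale (limma, adjusted p = 0.0377). Clmp, a relative of Cxadr, stood at 0.58 ± 0.13 and Ildr2, a relative of Lsr, at 0.54 ± 0.12, and neither passed (limma, adjusted p = 0.0685 and 0.0688). Jam3, a junctional adhesion molecule, stood at -0.53 ± 0.16 and did not pass (limma, adjusted p = 0.106). Of 22 tested genes of adherens junctions and polarity 0 passed, with a median of 0.03. Prkcz, an atypical protein kinase of the polarity complex, stood at 0.57 ± 0.15 and Scrib, a basolateral polarity protein, at -0.29 ± 0.09 (limma, adjusted p = 0.0858 and 0.120). Llgl2 and Pard3, of the basolateral and apical polarity complexes, stood at -0.36 ± 0.13 and -0.23 ± 0.10 (limma, adjusted p = 0.151 and 0.198). In miR-124a 2 the medians of these lists were -0.05 and -0.02, beside -0.64 for the epithelial genes.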

How the data were processed

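Total RNA from 3 control and 3 miR-124a teratomas was hybridised with Cy3 to 1-colour Agilent arrays, per the labels' protocols. The deposited scanner files give an intensity per spot, corrected for background with Agilent Feature Extraction 11.5.1.1 per the file headers and not scaled between arrays. The authors' deposited value table holds log2 values. Its columns were the log2 scanner intensity minus a constant per array (SD of the difference 0.0029; medians -2.98, -3.07, -2.98, -2.97, -2.99 and -2.98 in the order control 1 to 3, miR-124a 1 to 3), not centred per probe, in the direction of signal, and no source used here names its tool. It served as an alternative.

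Spots of 1 probe were averaged (62976 spots, 59305 not control, 56605 probes) and 22 outlier probes were left out. Values are log2 intensity minus the array's 75th percentile over spots that are not controls. Tested probes were well above background on each of the 3 arrays of a group, and the brightest tested probe stood for its gene. Genes were named by accession in the GRCm38.p6 table (32994 probes), symbol (10224) or older symbol (520), and 12867 probes kept the file's name. Probe positions are the array annotation's, build mm9. Groups came from the treatment in the labels and were compared by lmFit and eBayes of limma 3.58.1 (R 4.3.3), without covariates. Confidence intervals are 95% and unadjusted. Figures were drawn with matplotlib 3.10.9. The fit was also run on simulated data with known changes, in which each gene varied independently of the others. The outcome is not given here, and genes that vary together were not simulated. List scores are medians, in each tumour, of the tested genes' log2 signal minus the control mean, and summed signals add those genes' signals.

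All 37 genes were named, and of each other list up to 4 genes with the smallest p. Itgav, Zeb1, Zeb2 and the absent markers Ivl, Cdx2 and Cdhr5 fall outside this rule and were named after their values were seen. The genes and lists were chosen with earlier results of these data known. Each of these alternatives was run: leaving out a tumour, array weights, a replicate block, a variance trend with robust estimation, averaging a gene's tested probes, testing dim probes too or only those above background on 6 arrays, the authors' table, quantile scaling, and normexp (offset 50) followed by quantile scaling.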

Additional observations from a re-analysis of the deposited data

How the results depend on the processing

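Itgb6 kept its direction under every alternative and passed under quantile scaling, normexp, the authors' table, no filter, the filter on all 6 arrays, the mean of probes, array weights and the variance trend (limma, adjusted p = 0.0102 to 0.0445). The count of epithelial genes called, 1, was 3 with normexp, 0 with the replicate block, and 0 to 1 when a tumour was left out. The count of all genes called, 742, was 1535 with normexp, 96 without the filter, 1723 with the variance trend, 0 with the replicate block (limma, 4954 at an unadjusted p under 0.05) and 0 to 375 when a tumour was left out, with 4785 and 4103 at an unadjusted p under 0.05 where it was 0 (without control 2 and without miR-124a 2). Of the calls 84.9% were lower, and 62.2% with normexp. Correlations of same-numbered tumours were -0.16, -0.04 and -0.06, and those of differently numbered ones lay between -0.21 and 0.34. So few tumours cannot decide whether the numbers pair the samples. With the replicate block Itgb6 stood at -1.31 and did not pass (limma, adjusted p = 0.111). The median difference of the epithelial genes lay between -0.40 and 0.00 when a tumour was left out.

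Under the alternatives that kept all 6 tumours, 9 of 322 results of single genes turned in sign. Signs turned for more genes when a tumour was left out, for Grhl2, Ocln and Ap1m2 in 3 of 6 fits. With array weights Ocln was at 0.03, Spint2 at 0.03, Cldn8 at 0.08, Ap1m2 at 0.10, Lsr at 0.02, Grhl3 at 0.04 and Cldn3 at 0.11. Ap1m2 was at 0.01 with normexp and Prom1 at -0.06 with the mean of probes. The cause was not tested. Leaving out each tumour gave these ranges of the log2 difference for the genes whose sign turned: Cdh1 -0.46 to 0.03, Tjp1 0.00 to 0.06, Itgb4 -0.22 to 0.08, Grhl2 -0.15 to 0.27, Esrp1 -0.41 to 0.08, Ocln -0.31 to 0.09, Spint2 -0.26 to 0.14, Prom1 -0.24 to 0.34, Grhl1 -0.06 to 0.19, Cldn23 -0.29 to 0.07, Epcam -0.41 to 0.00, Spint1 -0.42 to 0.01, Cldn8 -0.61 to 0.23, Ap1m2 -0.24 to 0.13, Lsr -0.19 to 0.09, Grhl3 -0.27 to 0.20 and Cldn3 -0.46 to 0.16. Spread between tumours limits what 3 tumours per group can show, and Ovol1, Cldn4 and Cldn6 lie near the background of the array. Crb3, Ocln and Ap1m2 were about as dim as Cldn4 and Cldn6, though well above background on every array.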

Other observations

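Lists of other cell types gave these values, where 2.75% of all genes were called lower and 0.488% higher. Of 10 tested intestinal markers 4 fell, at a median of -0.52, with Fabp1, Fabp2, Lgals4 and Zg16, proteins of the gut lining, past the threshold. Fabp1 and Zg16 entered the test through the control group only. They were well above background on 1 and 0 of the 3 miR-124a arrays. The intestinal list score was -0.49, -0.63 and -0.48 in miR-124a 1 to 3, against 0.03, 0.04 and -0.06 in controls. Of 7 tested ciliated cell markers 1 rose, Ccdc39, a protein of motile cilia, by 0.67 ± 0.12 on the log2 scale (limma, adjusted p = 0.0443), and the list score was -0.53, 0.42 and 0.04 in control 1 to 3 and 0.46, -0.37 and 0.31 in miR-124a 1 to 3. Control 1 and miR-124a 2 were the lowest tumours there too. Of 8 endothelial, 7 macrophage and 8 neural progenitor markers 0 passed, at medians of -0.08, -0.07 and 0.17.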
